A study of Mus musculus with 10 samples.

Results

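The 45 genes described here encode the core machinery that builds autophagosomes and the receptors that bring cargo to them. They were chosen by name, as a list of known autophagy genes sorted into 5 steps: 5 genes of initiation, 13 of nucleation, 15 of conjugation, 4 of fusion and 8 cargo receptors. All 45 were found among the 54532 genes of the deposited count table, and all 45 were among the 13864 genes with enough reads to be tested. RNA was sequenced from hearts of C57BL/6 mice at 8 weeks of age. Mice of the control group (n = 5) had been injected with saline. Mice of the other group (n = 5) had been under stress from lipopolysaccharide (LPS) for 24 h, the time given by the labels. LPS is an outer membrane component of Gram-negative bacteria. No genetic change is named for either group, and the sources used here do not give sex, dose, route or batch. The study's title concerns autophagy under TLR4, TRAF6 and TFEB in septic hearts, and the comparison of LPS with saline asks how transcripts of the autophagy machinery differ there.

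Autophagy encloses cytoplasm, aggregates, glycogen or whole organelles in a double membrane, the autophagosome, which then fuses with a lysosome. A kinase complex around ULK1 starts the process, a lipid kinase complex around Beclin 1 and VPS34 marks the growing membrane, and ubiquitin-like conjugation attaches LC3 and GABARAP proteins to it. Receptors such as p62 bind both cargo and LC3, and in heart muscle this route removes damaged mitochondria and protein aggregates. Transcript levels do not measure the rate of autophagy, which depends also on protein modification and lysosomal breakdown.

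Total counts were 15586690 to 16786516 reads in saline and 14607969 to 17012372 reads in LPS libraries. The scaling factors (TMM) lay between 1.00 and 1.15 in saline and between 0.829 and 0.958 in LPS libraries. Summed cardiomyocyte markers, none of which passed the test, were at 31467 to 39762 CPM (read counts relative to the scaled library size) in saline and 34291 to 37929 CPM in LPS libraries. The sums of the heart muscle markers thus overlapped between the groups, whereas those of the endothelial markers did not. The latter were 747 to 1373 CPM in saline and 439 to 569 CPM in LPS libraries. Of the endothelial markers, 6 of 6 fell, 5 of them without overlap between the groups, and Cdh5 overlapped. Fibroblast markers summed to 1044 to 1205 CPM in saline and 910.02 to 1189 CPM in LPS libraries, and 2 of 6 fell. Macrophage markers moved in both directions. Of the macrophage and monocyte markers, 2 rose and 3 fell of 7, with sums of 335 to 494 CPM in saline and 284 to 446 CPM in LPS libraries. Pericyte and smooth muscle markers went from 1016 to 1281 CPM in saline to 825 to 1026 CPM in LPS libraries, with 1 of 5 tested falling. White blood cell markers other than those of macrophages were scarce. Neutrophil markers summed to 1.18 to 20.4 CPM in saline and 12.1 to 34.6 CPM in LPS libraries, with 2 of 3 tested rising and Elane at 0, and lymphocyte markers to 1.13 to 3.78 CPM and 1.38 to 2.098 CPM. Saline replicate 5 stood apart from the other saline libraries, with endothelial markers at 747 CPM against 1166 to 1373 CPM, and neutrophil markers at 20.4 CPM against 1.18 to 3.67 CPM. In bulk tissue, fewer cells of a type and less RNA per cell cannot be told apart, and the part of changed cell makeup in the results below was not tested.

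Of the 45 autophagy genes, 12 (26.7%) passed an adjusted p of 0.05 in edgeR's quasi-likelihood test, against 39.9% of all tested genes. Of these, 5 rose (18.9% of all tested genes rose) and 7 fell (21% of all tested genes fell). Ulk1, Vmp1, Atg3, Map1lc3b and Tax1bp1 rose, and Pik3c3, Atg4a, Atg4b, Atg4c, Epg5, Stbd1 and Wdfy3 fell. By step, 20% of initiation, 15.4% of nucleation, 33.3% of conjugation, 25% of fusion and 37.5% of cargo receptor genes passed. Each share was below the 39.9% of all tested genes. With 4 to 15 genes per step these shares are coarse, and they do not set any step apart from all tested genes. No autophagy gene changed as much as 2-fold, whereas 16.8% of all tested genes passed the test with a change of that size. Log2 fold changes ran from -0.80 for Atg4c to 0.56 for Vmp1. The median log2 fold change was -0.04 over the 45 genes and -0.02 over all tested genes. The median absolute log2 fold change was 0.15 over the 45 genes and 0.32 over all tested genes. The autophagy genes were also better covered, with a median of 34.5 CPM against 15.4 CPM. Genes with few reads give wider fold changes, and genes of like coverage were not compared, so the part of coverage in this difference was not tested.

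The 5 LPS libraries lay wholly above the 5 saline libraries in 2 autophagy genes, Vmp1 and Atg3, against 14.3% of all tested genes. They lay wholly below in 6, Pik3c3, Atg4a, Atg4b, Atg4c, Stbd1 and Atg101, against 14.1% of all tested genes. The 8 genes without overlap are thus 8 of 45, against 28.4% of all tested genes in either direction. Without saline replicate 5, the count was again 5 higher and 7 lower, where 21% of all tested genes were higher and 22.9% were lower.

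The split into 5 and 7 moved with 2 of the 4 other scalings of the libraries. With RLE size factors, 6 autophagy genes were higher (20.4% of all genes) and 7 were lower (19.9% of all genes). With TMM factors made without the 20 most abundant genes, 6 were higher (20.1% of all genes) and 7 were lower (20% of all genes). With total count scaling, 1 autophagy gene was higher (12.3% of all genes) and 27 were lower (41.6% of all genes). With upper quartile scaling, 1 was higher (14.4% of all genes) and 20 were lower (31.8% of all genes). In these last 2 scalings, the 7 genes that fell kept their call and Vmp1 was the 1 that stayed higher. Over all genes the median log2 fold change was then -0.30 and -0.18 in place of -0.02, so the whole distribution was moved with the autophagy genes. The number of rising genes was also 3 without saline replicate 1, 2 without saline replicate 3, 3 without saline replicate 4, 3 without LPS replicate 4 and 3 with no filter on low counts. In these fits 17.9%, 16.3%, 16.4%, 17.9% and 10.7% of all tested genes were higher.

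**Figure D1:**
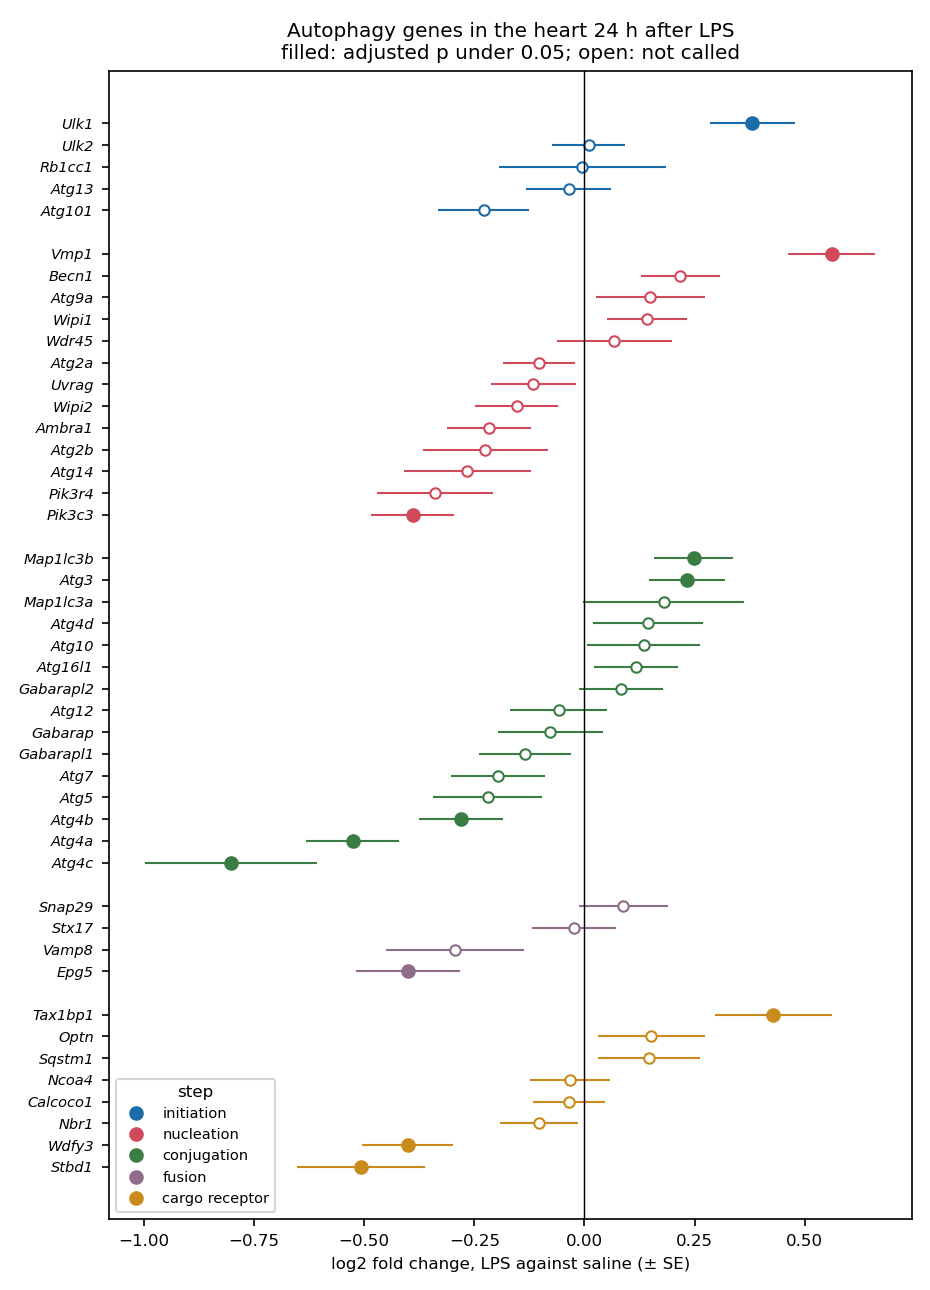
Log2 fold change of each of the 45 autophagy genes, LPS against saline (n = 5 per group, edgeR), with bars of 1 SE; filled points passed an adjusted p of 0.05 and open points did not. Every step holds both values above and values below 0, and the points run from -0.80 (Atg4c) to 0.56 (Vmp1); under total count scaling only Vmp1 remained a called rise.

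**Figure D2:**
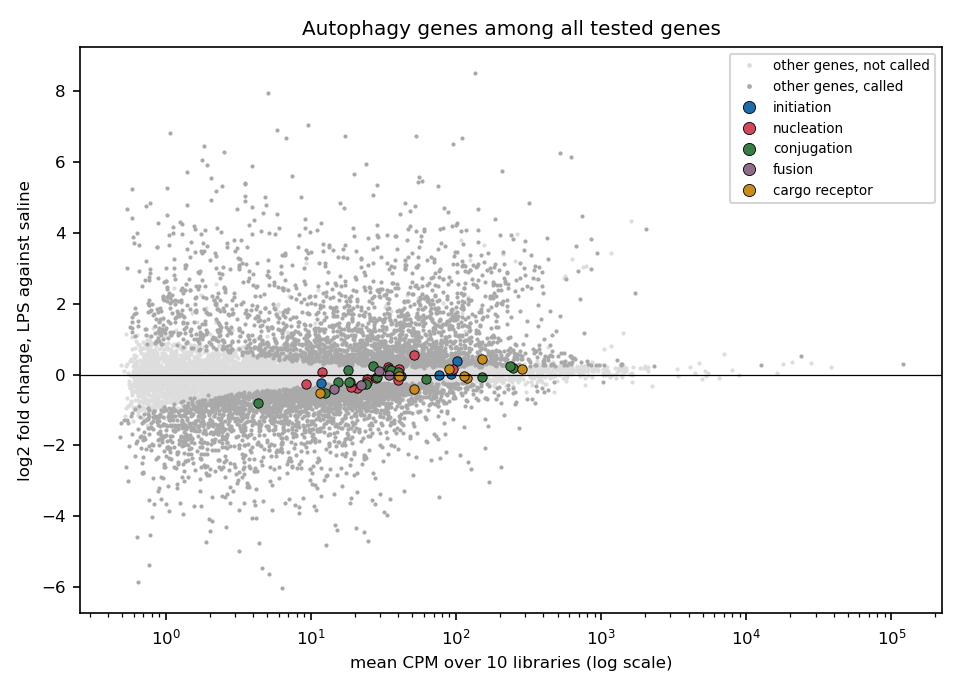
Mean CPM over the 10 libraries (log scale) against log2 fold change for all 13864 tested genes in grey, with the 45 autophagy genes in colour by step. The autophagy genes sit close to the line at 0, with a median absolute log2 fold change of 0.15 against 0.32 over all tested genes. Their median level was also higher (34.5 against 15.4 CPM), and genes of like coverage were not compared.

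Among the 5 genes of initiation, the kinase gene Ulk1 rose and none fell. Ulk1 (ENSMUSG00000029512, GRCm38 chromosome 5, 110784488 to 110810097) was at 95.9, 78.03, 82.6, 83.4 and 98.02 CPM in saline replicates 1 to 5 and at 96.9, 121, 124, 117 and 111 CPM in LPS replicates 1 to 5. LPS replicates 2 to 5 lay above every saline library, and LPS replicate 1 lay within the saline range. The group means ± SD were 87.6 ± 8.84 CPM (saline, n = 5) and 114 ± 10.7 CPM (LPS, n = 5), for a log2 fold change of 0.38 (SE 0.10, edgeR adjusted p = 0.00627). With total count scaling the log2 fold change of Ulk1 was 0.11 (adjusted p = 0.349), and with upper quartile scaling it was 0.23 (adjusted p = 0.0632), against medians over all genes of -0.30 and -0.18.

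Ulk2, the close relative of Ulk1, did not pass the test. Its mean was 92.6 ± 4.78 CPM in saline and 93.3 ± 7.53 in LPS libraries, a log2 change of 0.01 (SE 0.08, adjusted p = 0.938). Setting both genes against each other within a library removes the scaling. The ratio of Ulk1 to Ulk2 in the authors' FPKM (reads relative to gene length and library size) was 0.966, 0.818, 0.822, 0.847 and 0.897 in saline replicates 1 to 5. In LPS replicates 1 to 5 it was 1.07, 1.18, 1.26, 1.15 and 0.982. The groups did not overlap, with the highest saline library close to the lowest LPS library. The mean ratio went from 0.870 ± 0.0624 to 1.13 ± 0.108 (exact permutation test on log2 ratios, two-sided, p = 0.00794, the smallest that 252 assignments allow; adjusted p = 0.0397 over 5 gene pairs). This test was added after the data were seen and uses the same libraries as the call of Ulk1. The ratio of Atg4d to Atg4b, described below, was left out of the adjustment.

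Partners of the ULK kinases showed no called difference. Atg13, which links the kinase to its scaffold, was at 42.5 ± 3.05 CPM in saline and 41.5 ± 4.81 in LPS libraries. Rb1cc1, which encodes the scaffold FIP200, was at 76.6 ± 11.4 and 76.3 ± 22.9 CPM, and its LPS libraries were among the most spread of the 45 genes. Rb1cc1 shares 558 exon bases with 4732440D04Rik on the other strand. Atg101, which stabilises ATG13, was at 11.6, 12.2, 12.6, 14.2 and 12.3 CPM in saline and 10.7, 10.6, 11.1, 11.04 and 10.2 CPM in LPS replicates 1 to 5. Every LPS library lay below every saline library, but the log2 fold change of -0.23 (SE 0.10) had an adjusted p of 0.0935.

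Of the 13 nucleation genes, Vmp1 rose, Pik3c3 fell and 11 did not pass the test, with log2 fold changes of -0.34 to 0.22. Vmp1 (ENSMUSG00000018171, chromosome 11, 86583865 to 86683836) encodes a lipid scramblase of the endoplasmic reticulum at the sites where autophagosomes form. It was at 35.8, 38.1, 44.5, 39.2 and 48.95 CPM in saline replicates 1 to 5 and at 62.5, 64.3, 61.9, 62.5 and 53.5 CPM in LPS replicates 1 to 5. All 5 LPS libraries were above all 5 saline libraries, with saline replicate 5 the highest of its group and LPS replicate 5 the lowest of its own. Its mean went from 41.3 ± 5.33 to 60.96 ± 4.25 CPM, on the log2 scale a change of 0.56 (SE 0.10, edgeR adjusted p = 0.000452) and of 0.63 without saline replicate 5. This was the largest rise among the 45 genes, and its call held in all 19 alternatives. An exon of Vmp1 holds the microRNA gene Mir21a on the same strand, over 92 shared bases. Mir21a itself was listed with 0 reads. The 92 bases are those of the Mir21a annotation, and the extent of its primary transcript is not given here. Wherever that transcript overlaps exons of Vmp1, reads of both cannot be told apart.

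The lipid kinase complex of autophagy consists of the catalytic subunit VPS34 (Pik3c3), its regulatory subunit VPS15 (Pik3r4), Beclin 1 (Becn1) and ATG14, or UVRAG in the endosomal form. Pik3c3 (ENSMUSG00000033628) was at 22.6, 23.8, 25.8, 21.8 and 23.3 CPM in saline replicates 1 to 5 and 15.96, 17.8, 19.4, 17.3 and 18.96 CPM in LPS replicates 1 to 5. Every LPS library lay below every saline library. Averaged by group, it was at 23.4 ± 1.49 against 17.9 ± 1.39 CPM, which is a log2 difference of -0.39 (SE 0.09, adjusted p = 0.0045 by edgeR), with the same value of -0.39 without saline replicate 5. Its partner Pik3r4 was at 21.2 ± 1.94 CPM in saline and 16.8 ± 3.08 in LPS libraries and did not pass the threshold, with a log2 change of -0.34 (SE 0.13, adjusted p = 0.0523).

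Becn1, the regulatory subunit often read as a marker of this step, had a positive log2 fold change while the kinase subunit fell. Becn1 (ENSMUSG00000035086) was at 31.5, 28.2, 32.8, 31.8 and 31.6 CPM in saline replicates 1 to 5 and 40.1, 34.6, 32.3, 34.5 and 39.7 CPM in LPS replicates 1 to 5. LPS replicate 3 was within the saline range and the other 4 LPS libraries were above it. The log2 fold change of 0.22 (SE 0.09) had an adjusted p of 0.0705. Becn1 passed the threshold in 4 of the 19 alternatives, with an adjusted p of 0.0345 to 0.0480, and its log2 fold change was -0.053 with total count scaling. Atg14 was at 10.1 ± 1.28 CPM in saline and 8.41 ± 1.31 in LPS libraries, and Uvrag at 25.3 ± 2.45 and 23.3 ± 1.56 CPM. Ambra1, which binds Beclin 1, was at 20.1 ± 1.19 and 17.3 ± 1.43 CPM (adjusted p = 0.0886).

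The remaining nucleation genes carry lipids and read the lipid mark. Atg9a, the scramblase of the seed vesicles, was at 38.4 ± 7.37 CPM in saline and 42.6 ± 3.75 in LPS libraries. Atg2a and Atg2b encode proteins that move lipids into the growing membrane, and their FPKM ratio was 1.96 ± 0.236 in saline against 2.19 ± 0.505 in LPS hearts (exact permutation p = 0.429, adjusted p = 0.536). Wipi1, Wipi2 and Wdr45 encode sensors of the lipid that VPS34 makes. Wipi1 had 5.18 ± 0.568 times the FPKM of Wipi2 in saline and 6.44 ± 0.951 times in LPS hearts, a difference that did not pass over the 5 pairs (exact permutation p = 0.0476, adjusted p = 0.0794). Wdr45 was at 11.6 ± 1.84 CPM in saline and 12.1 ± 1.198 in LPS libraries.

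**Figure D3:**
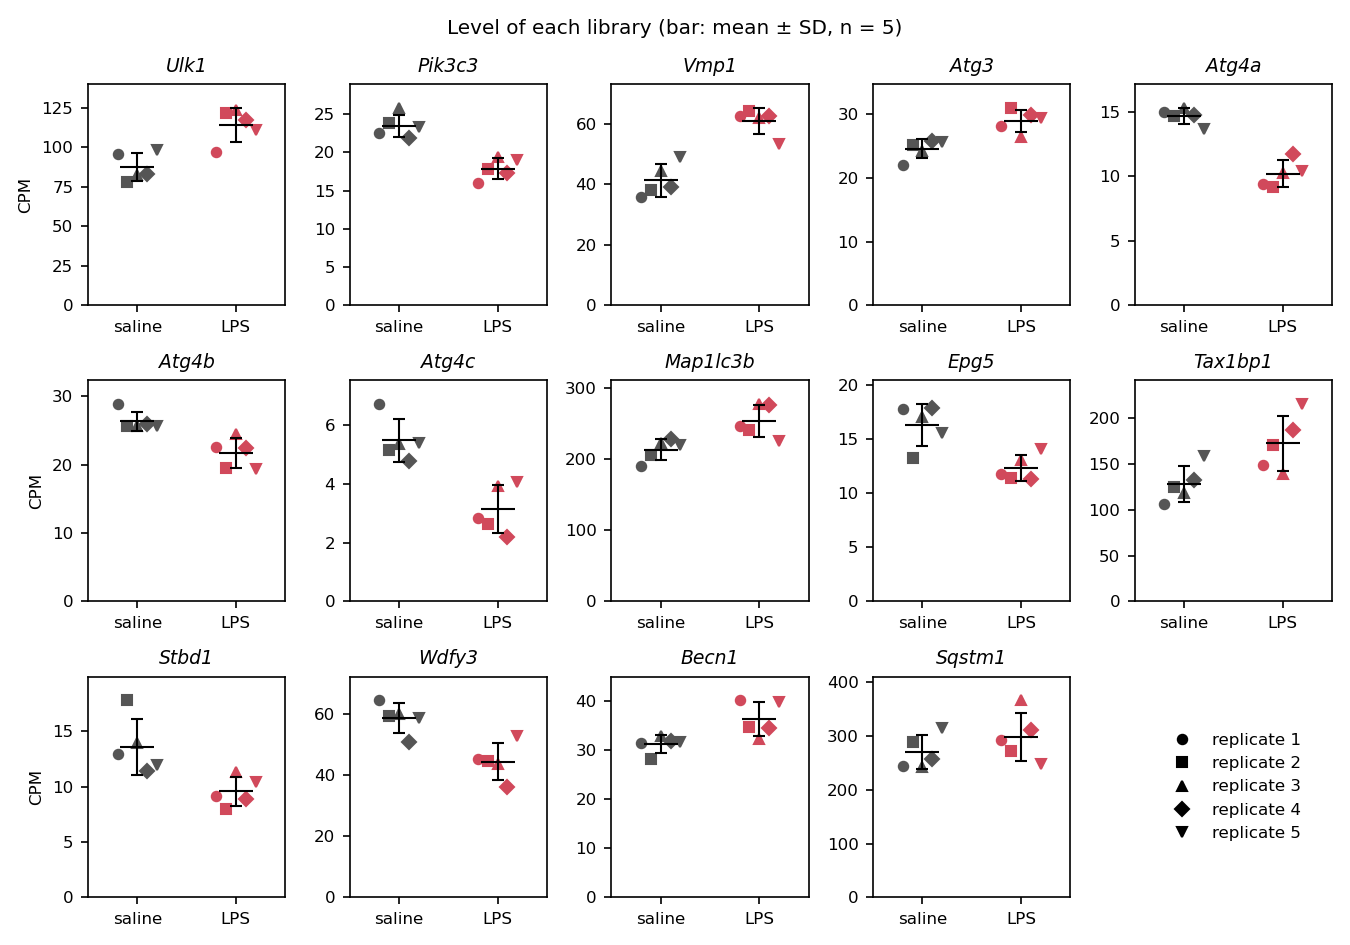
CPM of the 12 autophagy genes that passed the test and of Becn1 and Sqstm1, which did not, in each of the 5 saline (grey) and 5 LPS (red) libraries; bars are mean ± SD and the marker shape gives the replicate. Vmp1 and Atg3 are without overlap above saline, and Pik3c3, Atg4a, Atg4b, Atg4c and Stbd1 without overlap below it.

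Among the 15 conjugation genes, Atg3 and Map1lc3b rose, Atg4a, Atg4b and Atg4c fell, and 10 did not pass the test, with log2 fold changes of -0.22 to 0.18. Conjugation uses an activating enzyme (ATG7) and conjugating enzymes (ATG3 and ATG10). The ATG12, ATG5 and ATG16L1 complex directs LC3 to the membrane. ATG4 proteases trim newly made LC3 and GABARAP and later cut them off the membrane. The called changes here were in the enzyme that loads LC3, in the proteases and in 1 of the 5 LC3 and GABARAP genes.

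RefSeq promoter windows (GRCm38.p6), each with 250 bases before and 50 after the annotated start, were found for 37 of the 45 genes, 45 windows in all. They were searched for CACGTG, a palindrome that reads alike on both strands and is the core of the site bound by TFEB-family and many other basic helix-loop-helix factors. It was present in 4 of the 45 windows (8.89%) and in 2349 of 32851 windows of the same length over all genes (7.15%). Those 4 windows belong to Atg3, Atg5, Atg7 and Atg14, of which Atg3 alone passed the test, and a match is a description of the sequence only. The windows of Atg3, Atg5 and Atg14, in which the motif lies nearest to the annotated start, are shown to 10 bases after it. In Atg7, which is not shown, the motif begins 132 bases before the start (chr6:114670846-114671105, plus strand). This window lies inside the Atg7 gene, whose first base in the count data is 114643097. The Atg14 window also lies inside its gene, which on the minus strand begins at 47570649. Neither window is thus at the outermost start of its gene. Capitals mark the motif, which begins 94 and 71 bases before the start in Atg3 (chr16:45158579-45158838, plus strand). It begins 14 bases before the start in Atg5 (chr10:44268089-44268348, plus strand) and 1 base before it in Atg14 (chr14:47568425-47568684, minus strand, written 5′ to 3′ along the gene).
Atg3: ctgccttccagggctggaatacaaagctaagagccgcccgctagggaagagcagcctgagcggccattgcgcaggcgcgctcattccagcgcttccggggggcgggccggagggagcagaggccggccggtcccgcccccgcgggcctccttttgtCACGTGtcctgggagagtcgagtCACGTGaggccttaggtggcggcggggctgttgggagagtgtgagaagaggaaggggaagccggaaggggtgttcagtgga
Atg5: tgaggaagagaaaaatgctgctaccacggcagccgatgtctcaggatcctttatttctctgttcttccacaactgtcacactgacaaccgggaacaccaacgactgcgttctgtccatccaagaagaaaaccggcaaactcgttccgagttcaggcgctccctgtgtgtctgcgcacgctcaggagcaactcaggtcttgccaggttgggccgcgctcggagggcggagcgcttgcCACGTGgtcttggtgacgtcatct
Atg14: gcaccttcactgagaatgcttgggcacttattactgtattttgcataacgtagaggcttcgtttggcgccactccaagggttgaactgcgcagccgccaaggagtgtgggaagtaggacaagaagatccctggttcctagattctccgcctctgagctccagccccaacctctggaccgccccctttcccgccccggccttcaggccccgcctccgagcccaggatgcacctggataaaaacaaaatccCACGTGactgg

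Atg3 (ENSMUSG00000022663, chromosome 16, 45158785 to 45188538), whose window holds 2 copies of the motif, was at 22.1, 25.2, 24.2, 25.8 and 25.7 CPM in saline replicates 1 to 5. In LPS replicates 1 to 5 it was at 28.05, 30.9, 26.4, 29.9 and 29.3 CPM. All LPS libraries lay above all saline libraries, by a small margin. The group means were 24.6 ± 1.53 CPM (saline) and 28.9 ± 1.75 CPM (LPS), for a log2 fold change of 0.23 (SE 0.09, edgeR adjusted p = 0.0446). This call is close to the threshold. Leaving out saline replicate 1, 3 or 4, or LPS replicate 2 or 4, ended it, with an adjusted p of up to 0.0962, and its log2 fold change was -0.040 with total count scaling.

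Of the other enzymes and carriers of this step, Atg7 was at 16.3 ± 1.66 CPM in saline and 14.2 ± 1.01 in LPS libraries (adjusted p = 0.16), and Atg10 at 17.2 ± 2.204 and 18.9 ± 2.95 CPM. Atg5 was at 19.7 ± 1.38 CPM in saline and 16.95 ± 2.85 in LPS libraries (adjusted p = 0.178). Its partner Atg12 was at 29.01 ± 1.18 and 27.9 ± 4.599 CPM, and the third component Atg16l1 at 34.4 ± 2.86 and 37.2 ± 3.54 CPM. None of these 5 genes passed the test.

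Of the 4 ATG4 protease genes, 3 fell, where 21% of all tested genes fell. Atg4a (ENSMUSG00000079418, chromosome X, 140956907 to 141164270) was at 15.005, 14.7, 15.3, 14.8 and 13.7 CPM in saline replicates 1 to 5 and 9.395, 9.17, 10.2, 11.8 and 10.5 CPM in LPS replicates 1 to 5. All LPS libraries were below all saline libraries, which lay close together. Its mean went from 14.7 ± 0.5997 to 10.2 ± 1.03 CPM, on the log2 scale a change of -0.53 (SE 0.11, edgeR adjusted p = 0.00126). The pseudogene Atg4a-ps held 28 reads over the 10 libraries against 2021 of Atg4a, and how the counting split reads between the copies is unknown.

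Atg4c (ENSMUSG00000028550, chromosome 4, 99193934 to 99259787) showed the largest fall of the 45 genes and the lowest mean CPM. It was at 6.72, 5.18, 5.38, 4.797 and 5.4 CPM in saline replicates 1 to 5 and 2.83, 2.64, 3.92, 2.21 and 4.07 CPM in LPS replicates 1 to 5. The groups did not overlap, and LPS replicates 3 and 5 were the nearest to saline. Averaged by group, it was at 5.49 ± 0.727 against 3.13 ± 0.8195 CPM, which is a log2 difference of -0.80 (SE 0.20, adjusted p = 0.00475 by edgeR). Calls of Atg4a and Atg4c held in all 19 alternatives.

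Atg4b (ENSMUSG00000026280, chromosome 1, 93751500 to 93790610) encodes the protease with the broadest activity on LC3 and GABARAP. It was at 28.9, 25.7, 25.7, 25.9 and 25.6 CPM in saline replicates 1 to 5 and 22.6, 19.6, 24.5, 22.4 and 19.3 CPM in LPS replicates 1 to 5. All LPS libraries were below all saline libraries, with saline replicate 1 apart from the other 4. The group means were 26.3 ± 1.41 CPM (saline) and 21.7 ± 2.19 CPM (LPS), for a log2 fold change of -0.28 (SE 0.10, edgeR adjusted p = 0.0296). Leaving out saline replicate 1, 2, 3 or 4, or LPS replicate 2, 4 or 5, ended the call, with an adjusted p of up to 0.104 and a log2 fold change of -0.22 or below throughout.

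Atg4d, the fourth protease gene, was at 35.6, 29.8, 32.5, 31.96 and 33.9 CPM in saline replicates 1 to 5 and 43.5, 38.3, 40.1, 33.1 and 25.9 CPM in LPS replicates 1 to 5. Its log2 fold change was 0.14 (SE 0.12, adjusted p = 0.392). In FPKM, Atg4d made up 30.3% ± 1.20 of the 4 protease genes in saline and 40.0% ± 5.53 in LPS libraries, without overlap between the groups. The ratio of Atg4d to Atg4b, chosen after its values were seen and not tested, was 1.42 ± 0.0659 in saline and 1.90 ± 0.309 in LPS libraries. For Atg4a and Atg4b, which both fell, the FPKM ratio was 1.74 ± 0.0964 in saline against 1.47 ± 0.182 in LPS hearts (exact permutation p = 0.0397, adjusted p = 0.0794). Atg4d shares 1405 exon bases with Kri1 on the opposite strand, and the sources used here do not say if counting was stranded, so reads of both may be mixed.

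**Figure D4:**
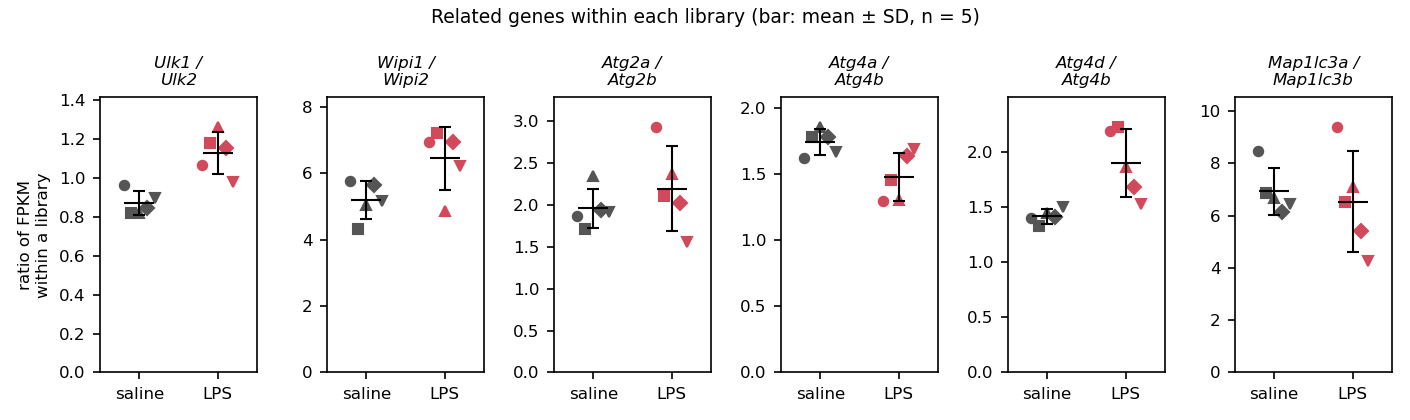
Ratio of FPKM between related autophagy genes within each library, saline in grey and LPS in red, with mean ± SD (n = 5 per group) and the marker shape giving the replicate (circle 1, square 2, upward triangle 3, diamond 4, downward triangle 5). The groups do not overlap for Ulk1 to Ulk2 and for Atg4d to Atg4b, a pair chosen after its values were seen and not tested. The other 4 pairs overlap.

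The 5 LC3 and GABARAP genes encode the small proteins that coat the autophagosome. Per length, Map1lc3a was the most abundant of the 45 genes in saline hearts at 206 ± 12.4 FPKM, ahead of Gabarap at 89.2 ± 6.24 FPKM. Gabarapl1 followed at 33.8 ± 3.095, Map1lc3b at 29.96 ± 2.17 and Gabarapl2 at 17.6 ± 1.04 FPKM. The first 2 differ far beyond their spread, while the saline ranges of Gabarapl1 and Map1lc3b overlap and their order depends on the gene length used. In saline libraries Map1lc3a made up 54.7% ± 2.92 of the FPKM of the 5 genes, Gabarap 23.7% ± 1.73 and Map1lc3b 7.96% ± 0.587. The deposited length of Map1lc3b is 7517 bases, whereas the principal transcript has 2532 bases. With the principal transcripts, Map1lc3b was at 84.4 ± 5.99 and Gabarapl1 at 35.4 ± 3.21 CPM per kilobase in saline, the reverse order, and the share of Map1lc3b among the 5 genes was 18.1%.

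Map1lc3b (ENSMUSG00000031812, chromosome 8, 121590361 to 121598760), the LC3 gene most used as a marker of autophagy, was at 191, 206, 223, 228 and 221 CPM in saline replicates 1 to 5 and 247, 242, 278, 277 and 226 CPM in LPS replicates 1 to 5. LPS replicate 5 lay within the saline range and the other 4 above it. Its mean went from 214 ± 15.2 to 254 ± 22.7 CPM, on the log2 scale a change of 0.25 (SE 0.09, edgeR adjusted p = 0.0398). Leaving out any of saline replicates 1 to 4, or LPS replicate 3 or 4, ended this call, with an adjusted p of up to 0.0784, and the log2 fold change was -0.025 with total count scaling. Within libraries, the FPKM ratio of Map1lc3a to Map1lc3b was 6.92 ± 0.897 in saline against 6.53 ± 1.93 in LPS hearts (exact permutation p = 0.579, adjusted p = 0.579).

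Map1lc3a was at 254, 222, 234, 221 and 224 CPM in saline replicates 1 to 5 and 364, 247, 310.3, 235 and 151 CPM in LPS replicates 1 to 5. The LPS libraries held both the highest and the lowest value of all 10. Its log2 fold change of 0.18 (SE 0.18) had an adjusted p of 0.47. Gabarap was at 156 ± 11.1 CPM in saline and 148 ± 25.95 in LPS libraries, Gabarapl1 at 64.5 ± 5.84 and 58.7 ± 8.04 CPM, and Gabarapl2 at 38.9 ± 2.19 and 41.2 ± 4.67 CPM. None of them passed the test. In LPS replicate 5, Map1lc3a, Gabarap, Vamp8, Atg4d, Gabarapl2, Atg101, Atg4b, Atg7 and Calcoco1 were at their lowest of all 10 libraries. Their deposited lengths ran from 1181 bases (Map1lc3a) to 8278 bases (Atg4b). In that library, the deviation of a gene from its group's mean went with log2 gene length across genes (r = 0.35). The reverse held in LPS replicate 1 (r = -0.22). In the other 8 libraries r lay between -0.12 and 0.14. The part of this length trend in the values of these genes was not tested.

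Of the 4 fusion genes, Epg5 fell and the 3 SNARE genes did not pass the test, with log2 fold changes of -0.29 to 0.09. Epg5 (ENSMUSG00000039840) encodes a tether that holds autophagosomes to late endosomes and lysosomes. It was at 17.8, 13.2, 17.1, 17.9 and 15.6 CPM in saline replicates 1 to 5 and 11.7, 11.4, 13.1, 11.4 and 14.1 CPM in LPS replicates 1 to 5. Saline replicate 2 lay among the LPS libraries and the other 4 above all of them. Averaged by group, it was at 16.3 ± 1.94 against 12.3 ± 1.21 CPM, which is a log2 difference of -0.40 (SE 0.12, adjusted p = 0.0139 by edgeR). Its adjusted p was 0.0531 without LPS replicate 2 and 0.0517 without LPS replicate 4. Stx17, the SNARE on the autophagosome, was at 34.9 ± 1.93 CPM in saline and 34.3 ± 4.01 in LPS libraries. Snap29, which bridges both membranes, was at 28.7 ± 1.51 and 30.6 ± 4.04 CPM. Vamp8, the SNARE on the lysosome, was at 24.6 ± 3.26 and 20.02 ± 4.65 CPM (adjusted p = 0.154).

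Among the 8 cargo receptors, Tax1bp1 rose, Stbd1 and Wdfy3 fell, and 5 did not pass the test, with log2 fold changes of -0.10 to 0.15. Tax1bp1 (ENSMUSG00000004535) encodes a receptor for ubiquitin-tagged cargo that also limits NF-kappaB signalling. It was at 106, 124, 118, 133 and 159 CPM in saline replicates 1 to 5 and 149, 171, 139, 187 and 215 CPM in LPS replicates 1 to 5. LPS replicates 2, 4 and 5 lay above every saline library, and saline replicate 5 lay above LPS replicates 1 and 3. The group means were 128 ± 19.9 CPM (saline) and 172 ± 30.3 CPM (LPS), for a log2 fold change of 0.43 (SE 0.13, edgeR adjusted p = 0.0189). Without saline replicate 5 it was 0.52 (adjusted p = 0.00292). Without saline replicate 3 the adjusted p was 0.0505, and with total count scaling the log2 fold change was 0.16 (adjusted p = 0.257).

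Stbd1 (ENSMUSG00000047963) encodes a receptor that binds glycogen and brings it to autophagosomes. It was at 12.97, 17.8, 13.9, 11.4 and 11.9 CPM in saline replicates 1 to 5 and 9.12, 8.002, 11.3, 8.92 and 10.5 CPM in LPS replicates 1 to 5. No LPS library reached the lowest saline library, although the highest LPS value came close to it. Its mean went from 13.6 ± 2.53 to 9.57 ± 1.33 CPM, on the log2 scale a change of -0.51 (SE 0.15, edgeR adjusted p = 0.0128). Without saline replicate 2, the highest library, the log2 fold change was -0.37 (adjusted p = 0.0561).

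Wdfy3 (ENSMUSG00000043940), which encodes the large scaffold ALFY for the removal of protein aggregates, was at 64.7, 59.5, 60.2, 50.98 and 58.9 CPM in saline replicates 1 to 5 and 45.4, 44.7, 43.7, 36.2 and 52.8 CPM in LPS replicates 1 to 5. LPS replicate 5 overlapped the lowest saline library, and the other 4 lay below all of saline. Averaged by group, it was at 58.8 ± 4.95 against 44.5 ± 5.92 CPM, which is a log2 difference of -0.40 (SE 0.10, adjusted p = 0.00671 by edgeR), a call that held in all 19 alternatives.

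Sqstm1 (ENSMUSG00000015837), which encodes p62, the receptor most used as a marker of autophagic flux, did not pass the test. It was at 244, 289, 242, 257 and 314 CPM in saline replicates 1 to 5 and 293, 272, 366, 311 and 248 CPM in LPS replicates 1 to 5. The groups overlapped over most of their range. Its log2 fold change was 0.15 (SE 0.12, adjusted p = 0.342), and -0.12 with total count scaling. Optn, another ubiquitin-binding receptor, was at 85.3 ± 14.1 CPM in saline and 94.8 ± 11.4 in LPS libraries, and Nbr1, a partner of p62, at 123 ± 6.23 and 114 ± 11.9 CPM. Calcoco1, a receptor for endoplasmic reticulum, was at 114 ± 5.95 and 111 ± 7.66 CPM, and Ncoa4, which delivers ferritin, at 40.9 ± 3.097 and 39.97 ± 3.55 CPM.

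Over all 45 genes, saline replicate 5 was the highest saline library in 15 and saline replicate 1 the lowest in 18. Among LPS libraries, replicate 3 was the highest in 18 and replicate 1 the lowest in 16.

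**Figure D5:**
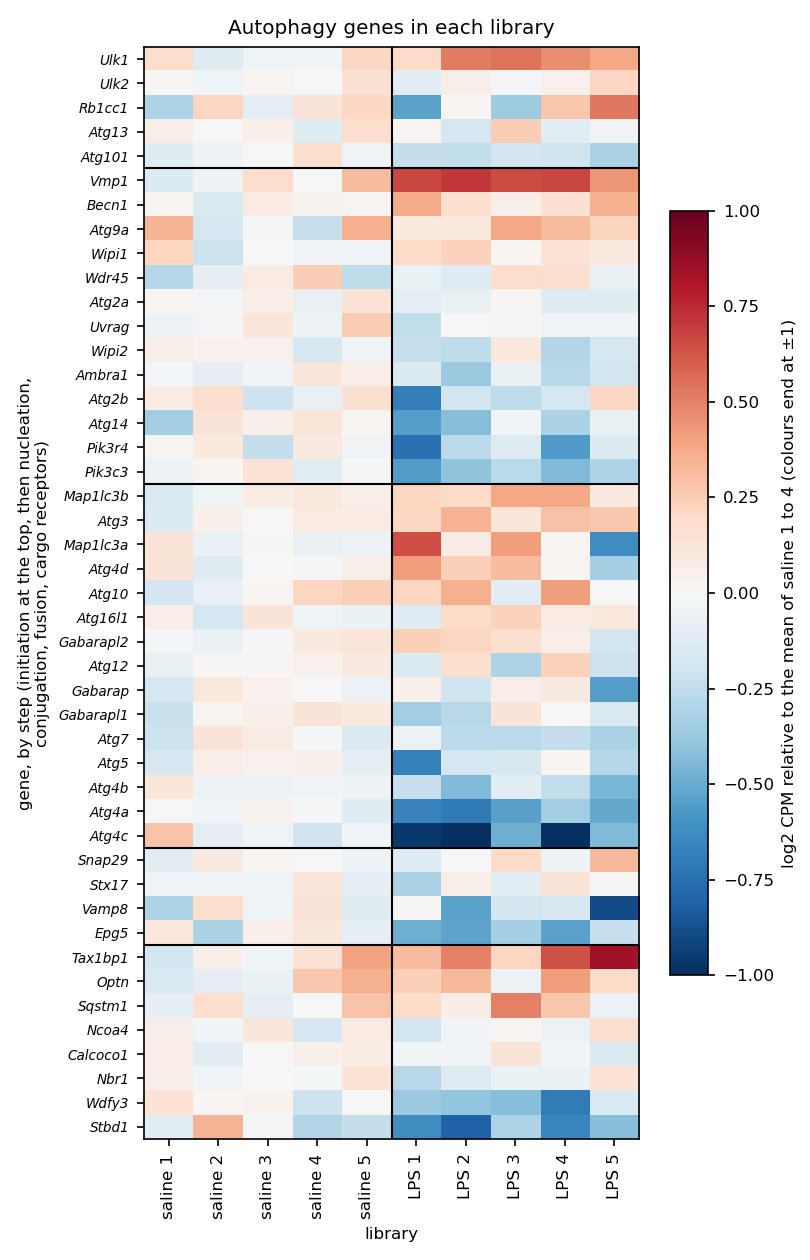
Log2 CPM of the 45 autophagy genes (rows, by step) in each library (columns), relative to the mean of saline replicates 1 to 4, with colours ending at 1 above or below. Rows of Vmp1 and Ulk1 are red across LPS libraries, rows of Pik3c3, Atg4a and Atg4c are blue, and LPS replicates 1 and 5 take opposite colours in Rb1cc1, Map1lc3a and Atg4d.

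A wider list of 46 autophagy genes outside the 45 gave 44 tested genes, of which 9 rose and 7 fell; Atg9b and Ccpg1 had too few reads. That is 36.4% of the 44, close to the 39.9% of all tested genes (18.9% higher and 21% lower). Their median log2 fold change was 0.01, and 2 passed the test with at least a 2-fold change. With total count scaling 2 were higher and 22 lower (12.3% and 41.6% of all genes), and with upper quartile scaling 4 were higher and 13 lower (14.4% and 31.8% of all genes). Among regulators of the lipid kinase complexes and of membrane supply, 5 rose and 2 fell of 11 tested. Snx18, a membrane-bending sorting nexin, went from 39.4 ± 7.59 to 85.3 ± 11.6 CPM, with an edgeR adjusted p of 1.45e-05 and a log2 fold change of 1.11 (SE 0.13), more than any of the 45. Sh3glb1, whose product binds UVRAG, went from 343 ± 30.96 to 466 ± 45.4 CPM, with an edgeR adjusted p of 0.00201 and a log2 fold change of 0.44 (SE 0.09). Among conjugation and LC3 partners, 2 rose and 2 fell of 8. The lipid phosphatase gene Mtmr14 went from 15.8 ± 3.22 to 28.8 ± 4.74 CPM at a log2 change of 0.87 (SE 0.15, adjusted p = 0.000409), and Tecpr1, which binds ATG5 on lysosomal membranes, from 40.3 ± 4.67 to 26.2 ± 2.39 CPM at a log2 change of -0.62 (SE 0.10, adjusted p = 0.000293).

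Tethering and fusion genes outside the 45 gave 2 that rose and 1 that fell of 12, where 18.9% of all tested genes rose and 21% fell. Vps18, a subunit of the HOPS tether, went from 13.3 ± 1.99 to 8.61 ± 1.09 CPM, with an edgeR adjusted p of 0.00223 and a log2 fold change of -0.63 (SE 0.14), and the SNARE gene Stx7 from 52.99 ± 4.06 to 64.9 ± 4.56 CPM at a log2 change of 0.29 (SE 0.08, adjusted p = 0.0126). Of 7 tested ER-phagy and other cargo receptors, 2 fell and none rose, against the same shares of 21% and 18.9% of all tested genes. Retreg2 went from 22.9 ± 4.07 to 9.64 ± 2.16 CPM, a log2 change of -1.25 (SE 0.16, adjusted p = 3.90e-05), and its relative Retreg3 from 39.7 ± 3.96 to 27.8 ± 4.49 CPM at a log2 change of -0.51 (SE 0.12, adjusted p = 0.00268). None of the 6 subunit genes of AMPK, the energy sensor that activates ULK1, passed the test, with 0 of 6 also at an unadjusted p under 0.05. The lowest adjusted p there belonged to Prkab1, at 29.02 ± 2.996 CPM in saline and 34.1 ± 4.86 in LPS libraries, with a log2 change of 0.23 (SE 0.11, adjusted p = 0.12). Prkag2 followed at 23.4 ± 2.63 and 26.1 ± 3.31 CPM, with a log2 change of 0.16 (SE 0.11, adjusted p = 0.298).

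In the authors' deposited table of Reactome terms, Macroautophagy held 65 genes, of which 18 (27.7%) were marked differential, 10 up and 8 down, against 36.8% of the genes over all terms. The authors' deposited table gives this term a p-value of 0.953 and an adjusted p of 1.0. It lists Ulk1, Atg3, Map1lc3b and Becn1 as up and Pik3c3, Atg4a, Atg4b and Atg4c as down among the genes described here. Becn1 is the 1 of these 8 that did not pass the test used here.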

How the data were processed

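Heart RNA was sequenced from 5 saline and 5 LPS mice, numbered as separate mice in the labels, with TruSeq libraries per the labels' protocols. The labels give no batch. The edgeR p-values set the difference between the groups against the spread between these samples, which is estimated partly across genes. The authors deposited read counts per gene for 54532 genes, with FPKM columns in the same table. Bowtie 0.12.2 and mm9 stand in the submitters' processing notes, whereas 43 of 45 autophagy genes have the start and end of GENCODE M21, so coordinates are given as GRCm38. The sources used here do not give the counting tool, annotation release or use of strand. The authors' p-value per Reactome term is quoted from their deposited table. In 2 further deposited FPKM tables the LPS columns are named for 3 h, with values equal to those of the columns named for 24 h. The deposited data thus name both times for the same LPS libraries. These further tables were not used, and the groups follow the labels (24 h).

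Counts were analysed in R 4.3.3 with edgeR 4.0.16: filterByExpr defaults (minimum count 10, minimum total 15; 13864 genes kept), TMM scaling, the robust quasi-likelihood F-test over all 10 libraries, and Benjamini-Hochberg adjustment over all tested genes, threshold 0.05. Total counts were 14607969 to 17012372 reads per library. CPM are counts relative to the TMM-scaled library size, SE derive from the F statistic, and values are mean ± SD over 5 libraries. FPKM, which the authors scaled by a deposited length per gene, served for ratios and shares within a library and for levels between genes in saline. They entered no test across genes. The sources used here do not say how that length was made. For Atg12 it is 2492 bases, below the 4765 bases of the principal transcript. Ratios of 5 gene pairs were compared by an exact permutation test over 252 assignments, a test added after the data were seen. On simulated counts with known changes, the test recovered 10 of 50 genes changed 1.5-fold, 32 of 50 changed 2-fold and 48 of 50 changed 8-fold. It made 142 calls there, 8 of them false, against 5533 calls in the data, so these shares do not carry over directly. A gene that did not pass is not thereby shown to be unchanged.

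The 45 genes, the further lists and the marker lists were chosen with earlier results of these data known. Full values are given for genes past the threshold, for Ulk1, Becn1, Map1lc3b and Sqstm1, for Atg101, Map1lc3a and Atg4d (chosen after their values were seen), and for the 2 lowest adjusted p in each further list. Alternative settings were scaling by total count, upper quartile, RLE or TMM without the 20 most abundant genes, no filter, a minimum of 1 CPM in 5 libraries, limma 3.58.1 voom, DESeq2 1.42.0, a replicate block, and leaving out each library; the length of the principal transcript was added after seeing the data. Exons of 6 of the 45 genes overlap a gene with at least 100 reads, over 46 to 1405 bases, so such reads may be mixed.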

Additional observations from a re-analysis of the deposited data

Results flagged for a closer look

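In 7 of 90 groups examined (45 genes, 2 groups each), 1 library lay far from the other 4 relative to the range of its group; chance alone gives about 1 in 20 groups. Saline replicate 1 was the lowest for Atg14 at 7.92 CPM, with the next library at 10.3 CPM, and the highest for Atg4b at 28.9 CPM, with the next at 25.9 CPM. Saline replicate 4 was the highest for Stx17 at 38.3 CPM, with the next at 34.3 CPM. LPS replicate 1 was the lowest for Uvrag at 20.6 CPM, with the next at 23.8 CPM, and the highest for Atg7 at 15.96 CPM, with the next at 14.1 CPM. LPS replicate 3 was the highest for Wipi2 at 45.6 CPM, with the next at 37.5 CPM. LPS replicate 5 was the lowest for Vmp1 at 53.5 CPM, with the next at 61.9 CPM, still above every saline library. Of these genes, Vmp1 and Atg4b passed the test, and Vmp1 kept its call without each of the 10 libraries in turn. Atg4b lost its call without saline replicate 1, with a log2 fold change of -0.23 (adjusted p = 0.104).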

How the results depend on the processing

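The 5 rising and 7 falling autophagy genes were 6 and 7 with DESeq2, RLE factors or TMM without the 20 most abundant genes, and 5 and 8 with limma voom. Leaving out each library in turn gave 2 to 6 rising and 5 to 8 falling genes. The share of all tested genes is not given here for DESeq2, limma voom, the replicate block or some of the fits without a library. The number of rising genes was 3 with no filter on low counts, 1 with total count scaling and 1 with upper quartile scaling, and the number falling was 27 and 20 with these scalings. Of the 12 calls, 5 (Pik3c3, Vmp1, Atg4a, Atg4c and Wdfy3) held in all 19 alternatives. Among the genes given in full or in pairs, log2 fold changes turned below 0 with total count scaling in Atg3 (-0.040), Map1lc3b (-0.025), Becn1 (-0.053), Sqstm1 (-0.12), Ulk2 (-0.26), Wipi1 (-0.13), Atg4d (-0.13), Map1lc3a (-0.090) and Gabarapl2 (-0.19). With upper quartile scaling they turned below 0 in Sqstm1 (-0.0076), Ulk2 (-0.15), Wipi1 (-0.018), Atg4d (-0.014) and Gabarapl2 (-0.075). With 1 library left out, the sign turned in 7 of all 45 genes, none of them called: Ulk2 (-0.028 to 0.051), Gabarap (-0.11 to 0.024), Atg13 (-0.093 to 0.026), Rb1cc1 (-0.15 to 0.11), Atg12 (-0.11 to 0.013), Stx17 (-0.042 to 0.043) and Ncoa4 (-0.076 to 0.014). Over all genes the median log2 fold change was -0.30 and -0.18 with total count and upper quartile scaling against -0.02, and which scaling is right was not tested. With no filter on low counts, adjusted p was 0.12 for Atg3, 0.075 for Atg4b and 0.0744 for Map1lc3b. With the replicate block, 4 rose and 7 fell and the adjusted p of Atg3 was 0.0558. Same-numbered libraries correlated at -0.15 to 0.20 in their deviations from the group means. The LPS library that correlated best with a saline library bore the same number only for saline replicate 3. Such weak correlations cannot decide whether the samples were paired. With the length of the principal transcript, Map1lc3b was at 84.4 and Atg4b at 6.31 CPM per kilobase in saline; the cause of the other differences was not tested.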
